A study of Mus musculus with 6 samples.

Results

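Cilia are hair-like projections built on a core of microtubule doublets, the axoneme. Most cells, astrocytes included, carry a single immotile primary cilium that serves signalling, while the ependymal cells that line the brain ventricles carry tufts of motile cilia. The genes described here code for cilium and axoneme proteins. They were taken by a rule on gene symbols that was set with earlier results of these data known. The rule takes symbols beginning with Dnah, Dnali, Dynlrb, Rsph, Tekt, Ift or Bbs followed by a digit. It adds a short set of named genes (Foxj1, Spag6, Spag16, Spag17, Hydin, Ccdc39, Ccdc40, Ccdc153, Tmem212, Arl13b). Of 62 symbols that met this rule, 59 had a probe set of their own among 19926 genes tested. Arl13b had no named probe set, and Rsph3a and Rsph3b shared theirs, so these 3 were not analysed here.

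Primary astrocytes of C57BL/6J mice were grown in culture. The 3 control samples were collected at 24 h, and the 3 TNF samples received tumour necrosis factor, a pro-inflammatory cytokine, at 50 ng/mL for the same 24 h. Each sample was hybridised to 1 Affymetrix Mouse Gene 1.0 ST array, a 1-colour platform whose probes cover whole transcripts. The values are log2 signals, and every difference given is TNF minus control on that scale. Precision is limited by the number of arrays. Nothing in the labels ties each replicate to its own culture or animal. The p-values measure only how far these samples spread, and that spread may be technical.

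The axoneme carries rows of dynein arms, the motors that slide doublets past each other, and radial spokes that reach inward to a central pair apparatus. Cilia are built by intraflagellar transport (IFT), in which IFT-B particles carry cargo to the tip and IFT-A particles carry it back, and the BBSome, a coat of Bardet-Biedl syndrome proteins, moves membrane proteins out of and into the cilium. Foxj1 is the transcription factor that drives motile cilium genes, together with the RFX factors, which bind a promoter element named the X-box.

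The X-box, searched on both strands as GTNNCC followed by NNN and GNAAC without a gap, was found in a promoter window of 9 of the 52 members that matched the RefSeq promoter table (GRCm38.p6; 250 bases before to 50 after each start). This was 17.3% of the members, against 2.79% of 15605 genes tested that had a window. The 9 members were Bbs1, Bbs4, Bbs7, Dnah17, Hydin, Ift22, Ift57, Spag16 and Tekt4. A forkhead site, searched as TGTTTAC on both strands, was found in 2 of 52 members (3.85%) against 3.54% of all such genes. A match describes the letters and is not evidence of binding. The 5 stretches shown carry the X-box wholly before the start, with the match in capitals and 15 bases on either side, read along the strand of the gene. In Ift57 and Hydin the letters searched lie on the opposite strand, and in Bbs7 they match on both. They lie at chr3:36613482-36613525 on the minus strand for Bbs7, chr16:49699192-49699235 on the plus strand for Ift57, chr5:136908102-136908145 on the plus strand for Ift22, chr8:110266941-110266984 on the plus strand for Hydin and chr1:69826852-69826895 on the plus strand for Spag16. They are shown because they set a BBSome gene and IFT genes, which every ciliated cell uses, beside central apparatus genes of motile cilia.
Bbs7: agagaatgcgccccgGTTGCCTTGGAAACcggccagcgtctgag
Ift57: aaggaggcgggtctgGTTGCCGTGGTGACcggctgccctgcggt
Ift22: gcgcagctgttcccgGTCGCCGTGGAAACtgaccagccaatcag
Hydin: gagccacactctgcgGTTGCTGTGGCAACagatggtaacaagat
Spag16: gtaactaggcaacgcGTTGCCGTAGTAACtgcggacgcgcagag

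Of 10 astrocyte markers, S100b averaged 6.59 in the controls and the others from 9.36 for Slc1a2 to 12.7 for Slc1a3. With TNF, 3 of the 10 fell (Aldoc, Glul and Gja1), which is 30%, against 3.33% of all genes tested. None rose, where 3.87% of all genes did. With the replicate block described next 6 passed as lower (60%, against 11.8% of all genes). In that fit 2 passed as higher (Aqp4 and Slc1a2), which is 20%, against 9.73% of all genes. Arrays with the same replicate number deviated together, so a fit with that number as a block is given beside the unblocked one. The labels do not state what the number marks, so the pairs below rest on these values. Replicate 3 stood apart, with lower quartiles of signal at 6.27 (control) and 6.33 (TNF) where the other arrays had 6.01 to 6.09. Signals are not corrected for how many cells of a kind were present, and fewer ciliated cells and less RNA per cell cannot be told apart.

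With TNF, 2 of the 59 genes fell and 0 rose at a limma adjusted p under 0.05. This is 3.39% of the members, and 3.33% of all genes tested fell, so the count without the block is near the background. Of all genes tested, 3.87% rose and 7.2% changed in either direction. The 2 genes that fell were Ccdc39, by 1.99-fold, and Dnah7b, by 1.92-fold. At an unadjusted p under 0.05, 11 members were lower and 0 higher, where 9.73% of all genes were lower and 9.15% higher.

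Most members leaned one way. The difference was below 0 for 49 members and above 0 for 10, with a median of -0.16 against -0.0033 over all genes tested. The TNF array lay below the control of the same number in all 3 pairs for 37 members, or 62.7%, against 26.9% of all genes. It lay above in all 3 pairs for 2 members, Rsph6a and Tekt2, where 25.7% of all genes did. The groups did not overlap in 5 of the 59 members with TNF lower (Dnah7b, Dnah9, Dnah11, Ccdc39 and Ift74) and in 0 with TNF higher. Of all genes 11.7% and 12.3% did not overlap, so neither count was above the background. With the replicate number as a block, 20 members passed as lower and 0 as higher. That is 33.9% of the members, where 11.8% of all genes passed as lower and 9.73% as higher in the same fit. Of the 20, 12 were axoneme genes, 7 were IFT or BBS genes and 1 was the dynein light chain Dynlrb2.

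These counts depended on single arrays. Without the block, 0 members passed as lower without control 1 (1.58% of all genes) or without control 3 (1.83%), and 5 passed without control 2 (2.11%). With TNF 1, TNF 2 or TNF 3 left out, 1 member passed each time, where 2.19%, 1.74% and 2.28% of all genes did. With the block, 15 passed as lower without replicate 1, 16 without replicate 2 and 8 without replicate 3, where 11.3%, 8.33% and 7.28% of all genes did. The 8 were Bbs9, Ccdc39, Dnah6, Dnah7b, Dnah9, Dnah11, Rsph1 and Rsph4a, and no IFT gene was among them. Ift57, Dnah2 and Dnah5 passed in none of these blocked fits with a replicate left out.

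**Figure D1:**
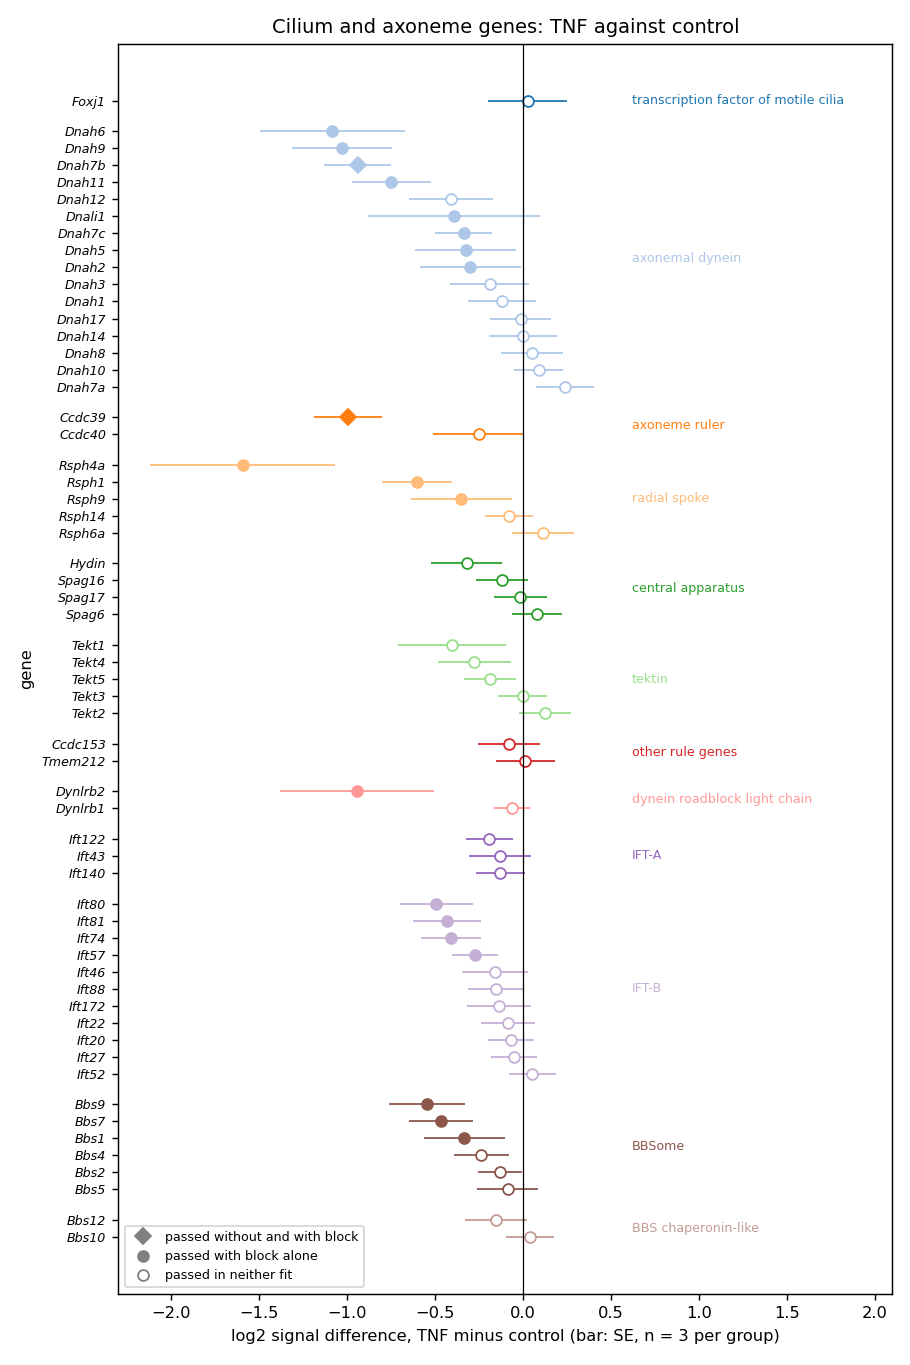
Log2 difference of each of the 59 genes, TNF minus control, with its SE (bars, n = 3 per group), grouped by role. Diamonds mark the 2 genes that passed in both fits (Ccdc39 and Dnah7b), filled circles those that passed as lower with the replicate block alone, and open circles those that passed in neither. Most points lie left of 0, and Foxj1 lies at 0.03.

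Foxj1, the regulator of the motile cilium programme, showed a difference close to 0. It measured 10.36, 9.46 and 10.11 in controls 1, 2 and 3, and 10.16, 9.85 and 9.998 with TNF in the same order of numbers. The groups overlapped, and the TNF value was higher in 1 of 3 pairs. The log2 difference was 0.03 (SE 0.23, adjusted p = 0.986), with a 95% interval from -0.50 to 0.55. This interval, from the fit without the block, holds differences as large as that of Ift80 or Hydin, so that fit does not exclude them. With the block the SE was 0.12, and Foxj1 did not pass (adjusted p = 0.92).

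Axonemal dyneins formed the largest role, and 14 of them were dim, below the median signal of all genes. Of 16 axonemal dynein genes 1 fell without the block (6.25%, against 3.33% of all genes tested). With it 8 passed as lower (50%, against 11.8% of all genes). Dnah7b (probe set 10346109), an inner arm heavy chain, measured 7.47, 7.18 and 7.84 in the controls and 6.37, 6.78 and 6.51 with TNF. The groups did not overlap. It fell from a mean of 7.496 (SD 0.33) to 6.56 (SD 0.21), n = 3 per group, a log2 difference of -0.94 (SE 0.19, adjusted p = 0.0244), or 1.92-fold lower. Its second, separate probe set was at -0.27 and passed in neither fit (adjusted p = 0.669; 0.349 with the block, adjusted over all probe sets). Of its close relatives, Dnah7c was at -0.34 and passed as lower with the block alone (adjusted p = 0.327; 0.0453 with the block), and Dnah7a was at 0.24 and passed in neither fit (adjusted p = 0.57). Whether the relatives differ from each other was not tested. The 3 are near-identical paralogues whose probes may share signal, so the split among them is uncertain. Leaving out control 1, control 3, TNF 1 or TNF 3 ended the call of Dnah7b (adjusted p up to 0.0855), as did leaving out replicate 3 (0.129).

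Among outer arm heavy chains, Dnah9 and Dnah11 had the largest differences. Dnah9, which forms the distal outer arms in human airway cilia, measured 9.40, 8.47 and 9.18 in controls and 8.47, 7.65 and 7.85 with TNF. Every TNF value lay below every control value, by a narrow margin at its edge. The log2 difference was -1.03 (SE 0.29, adjusted p = 0.0795; 0.000825 with the block). Dnah11, its proximal counterpart in human cilia, measured 7.47, 6.63 and 7.23 in controls and 6.56, 6.11 and 6.41 with TNF. These groups did not overlap either, and the difference was -0.75 (SE 0.22, adjusted p = 0.103; 0.00183 with the block). Dnah5, which runs along the whole axoneme, differed by -0.33 (adjusted p = 0.697; 0.0354 with the block). The outer arm chains known from sperm, Dnah8 and Dnah17, were at 0.05 and -0.01 and passed in neither fit.

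Inner arm chains were mixed. Dnah6 had the largest difference of the dyneins at -1.08, with 7.93, 6.13 and 6.95 in controls and 6.17, 5.52 and 6.06 with TNF. Here the groups overlapped because control 2 lay between TNF values, and the gene passed with the block alone (adjusted p = 0.201; 0.008 with the block). Its other 2 probe sets differed by -1.32 and -0.64 and also passed with the block alone (adjusted p = 5.97e-04 and 0.00456, adjusted over all probe sets). Dnah2 at -0.30 and the inner arm light chain Dnali1 at -0.39 passed with the block alone (adjusted p = 0.0491 and 0.0403). Dnah12 at -0.41, Dnah3 at -0.19, Dnah1 at -0.12, Dnah14 at -0.0027 and Dnah10 at 0.09 passed in neither fit. Another of the 5 probe sets of Dnah10, dimmer than the one used, differed by -0.43 and passed with the block (adjusted p = 0.0144).

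Ccdc39 and Ccdc40 form the molecular ruler that spaces dynein arms and spokes along the doublet. Ccdc39 (probe set 10497731) measured 8.97, 8.41 and 8.74 in controls and 7.96, 7.77 and 7.39 with TNF. All TNF values lay below all controls. It fell from a mean of 8.70 (SD 0.28) to 7.71 (SD 0.29), n = 3 per group, a log2 difference of -0.995 (SE 0.20, adjusted p = 0.0217), or 1.99-fold lower. The call was lost without control 1, control 3 or TNF 2 (highest adjusted p = 0.0839) and without replicate 3 (0.136). Its partner Ccdc40 differed by -0.25 (SE 0.26) and passed in neither fit.

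Radial spoke head genes held the largest difference of all members. Rsph4a, a spoke head subunit, measured 9.62, 7.86 and 8.86 in controls 1, 2 and 3 and 8.19, 6.68 and 6.68 with TNF. Controls and TNF samples overlapped, because control 2 lay below TNF 1, but each TNF value was below the control of the same number. The log2 difference was -1.59 (SE 0.53), or 3.02-fold lower, with an adjusted p of 0.135 without and 8.72e-04 with the block. The other head subunits passed with the block alone as well: Rsph1 at -0.60 (adjusted p = 0.00305) and Rsph9 at -0.35 (adjusted p = 0.0386). Rsph6a, the relative of Rsph4a known from sperm, was at 0.11, and the spoke protein Rsph14 was at -0.08.

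**Figure D2:**
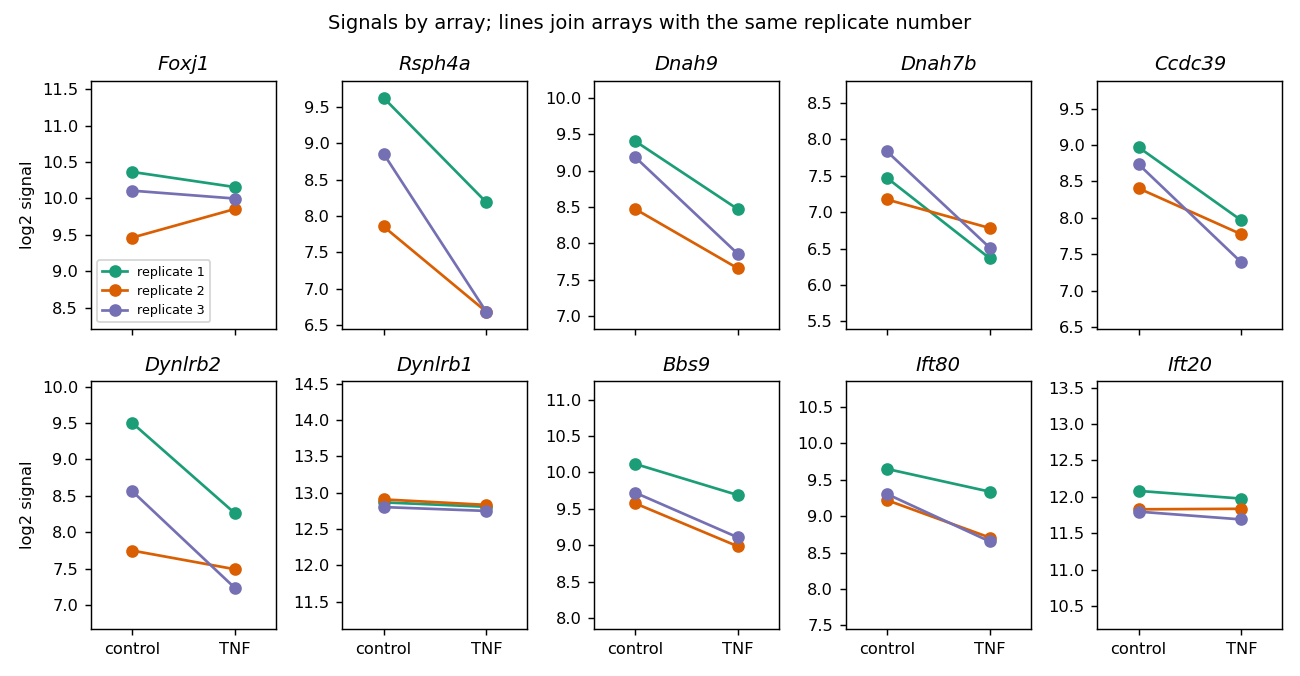
Log2 signal of 10 members on each array. Lines join control and TNF arrays with the same replicate number, and all panels span the same number of log2 units. Rsph4a, Dnah9, Ccdc39, Bbs9 and Ift80 run downward in every pair, Foxj1 runs both ways, and Dynlrb1 and Ift20 stay nearly level.

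Central apparatus genes and tektins among the members passed in neither fit. Hydin, a large central pair protein, was at -0.32 (SE 0.20), Spag16 at -0.12, Spag17 at -0.02 and Spag6 at 0.08. Tektins are filament proteins of the doublet wall, and they ranged from Tekt1 at -0.40 (adjusted p = 0.62; 0.0544 with the block) to Tekt2 at 0.12, with Tekt4 at -0.28, Tekt5 at -0.19 and Tekt3 at -0.0028. Ccdc153 and Tmem212, found in ciliated cells, were at -0.08 and 0.01. In all, 29 of the 59 members had a mean signal below the median of all genes tested, among them all central apparatus and tektin genes named here and no IFT or BBSome gene. RMA values of dim genes sit near a floor, so that their differences may be understated. The median difference was -0.24 over the 30 brighter members and -0.12 over the 29 dimmer ones, which lay at 0.02 in the pair of replicate 3.

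The roadblock light chains are 2 genes of 1 family. Dynlrb2, the form found in ciliated tissues, measured 9.51, 7.75 and 8.57 in controls and 8.26, 7.49 and 7.24 with TNF. The groups overlapped, and the difference of -0.94 (SE 0.44) passed with the block alone (adjusted p = 0.311; 0.014 with the block). Its 95% interval without the block ran from -1.96 to 0.07, and the blocked call was lost without replicate 3. Dynlrb1, which also serves cytoplasmic dynein in all cells, measured 12.87, 12.91 and 12.80 in controls and 12.81, 12.83 and 12.75 with TNF. Its difference of -0.06 had a 95% interval from -0.29 to 0.17. Whether the paralogues differ from each other in their response was not tested.

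Transport genes differed by less than the axoneme genes at the extreme, but with the same lean. Of 14 IFT genes among the members 0 passed without the block, where 3.33% of all genes tested fell. With it 4 of the 11 IFT-B genes passed as lower (36.4%, against 11.8% of all genes). Of the 3 IFT-A genes 0 did, too few to set against IFT-B. Ift80, a peripheral IFT-B subunit, measured 9.65, 9.22 and 9.31 in controls and 9.34, 8.71 and 8.65 with TNF. The groups overlapped at TNF 1, and the difference was -0.49 (SE 0.21, adjusted p = 0.252; 0.00883 with the block). Ift81 and Ift74, which together bind tubulin, were at -0.43 and -0.41 (adjusted p = 0.0403 and 0.0411 with the block), and Ift57 was at -0.27 (0.0456). None of these 4 passed with the block when replicate 3 was left out. In Ift74 the groups did not overlap: the controls measured 8.30, 8.36 and 8.23 and the TNF samples 8.06, 8.11 and 7.50.

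The remaining IFT genes passed in neither fit. Ift88, a core IFT-B subunit needed for cilium assembly, was at -0.16, the motor-linked Ift172 at -0.14, Ift46 at -0.16, the small GTPases Ift22 and Ift27 at -0.09 and -0.05, and Ift52 at 0.05. Ift20, which also acts at the Golgi, measured 12.08, 11.83 and 11.80 in controls and 11.98, 11.84 and 11.69 with TNF, a difference of -0.07 with a 95% interval from -0.37 to 0.23. The IFT-A genes Ift122, Ift43 and Ift140 were at -0.19, -0.13 and -0.13 and were lower in all 3 pairs, yet passed in neither fit.

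All 6 BBSome subunits among the members were lower with TNF than in the control of the same number in all 3 pairs. Bbs9 measured 10.12, 9.57 and 9.72 in controls and 9.69, 8.98 and 9.11 with TNF. Its groups overlapped at TNF 1, and the difference was -0.55 (SE 0.22, adjusted p = 0.222; 0.00345 with the block). Bbs7 at -0.47 and Bbs1 at -0.33 also passed with the block alone (adjusted p = 0.0143 and 0.0303). Bbs4 at -0.24, Bbs2 at -0.13 and Bbs5 at -0.09 did not. The chaperonin-like proteins Bbs12 and Bbs10, which help to assemble the BBSome, were at -0.15 and 0.04. The 9 members with an X-box match were spread over this range, and 3 of them (Bbs1, Bbs7 and Ift57) passed with the block.

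Motile cilium and transport genes outside the rule were also lower more often than higher. Of 59 measured other motile cilium genes 4 fell (6.78%, against 3.33% of all genes tested) and 0 rose. With the block 27 passed as lower (45.8%, against 11.8% of all genes), with a median of -0.33. Cfap54, a central apparatus protein, fell by 1.27 (SE 0.22, adjusted p = 0.0142), and Mns1, a protein of the doublet interior, fell by 0.67 (adjusted p = 0.0164). Leaving out 1 array ended each call in 3 of 6 fits (adjusted p up to 0.0565 and 0.0723). Of 24 other IFT, BBS and motor genes 0 passed without the block and 5 passed as lower with it (20.8%), with a median of -0.26. They included Dync2h1, the heavy chain of the retrograde IFT motor, at -0.61 (adjusted p = 0.0029), the BBSome subunit Ttc8 at -0.50 and the IFT-A subunit Wdr19 at -0.41, named after their values were seen. Dynein arm assembly factors had a median of 0.07, with 0 of 11 passing without the block. With it 1 passed as lower (9.09%, below the 11.8% of all genes).

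**Figure D3:**
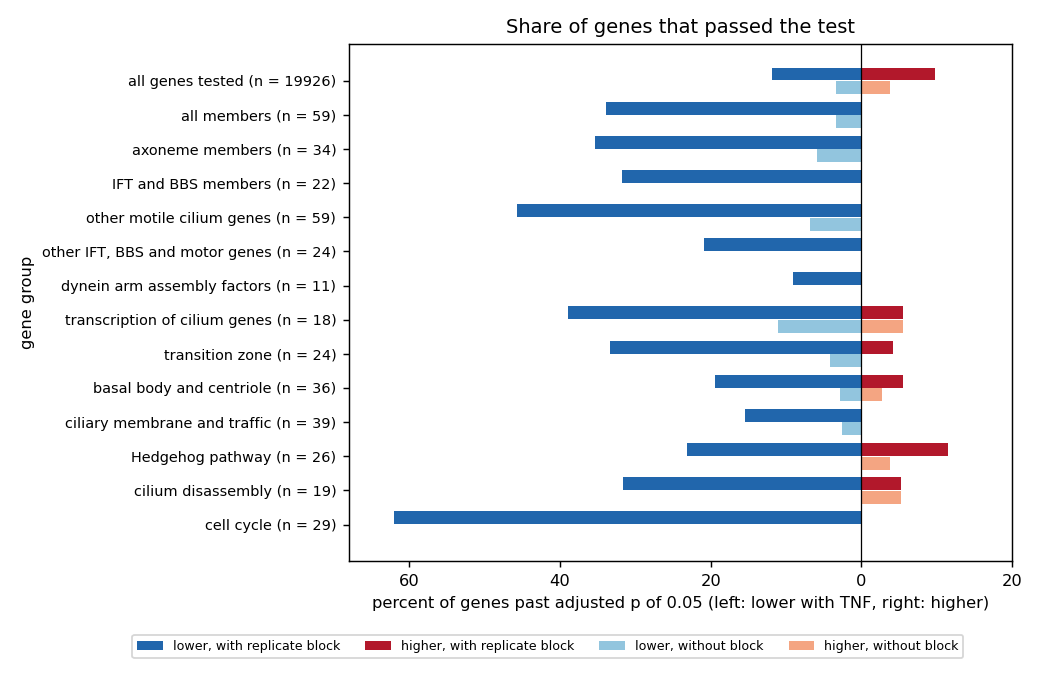
Percent of each gene group that passed an adjusted p of 0.05, to the left for genes lower and to the right for genes higher with TNF, with (dark) and without (light) the replicate block. With the block the members reached 33.9% lower and 0 higher, all genes tested 11.8% lower and 9.73% higher.

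Genes listed for transcription of the cilium programme, other than Foxj1, were lower more often than higher. Of 18 measured, 2 fell (11.1%, against 3.33% of all genes tested) and 1 rose. With the block 7 passed as lower (38.9%, against 11.8% of all genes) and 1 as higher. Rfx4 and Rfx3, RFX factors of ciliated and neural cells, fell by 0.93 (SE 0.21, adjusted p = 0.0356) and by 0.88 (SE 0.21, adjusted p = 0.0461). Leaving out 1 array ended these calls in 4 and 5 of 6 fits (adjusted p up to 0.133 and 0.156). The gene that rose was Rfx5, an RFX factor that activates MHC class II genes, by 0.94 (SE 0.13, adjusted p = 0.00509). Passing with the block alone were Gmnc, the geminin relative that commits cells to making many cilia, at -1.34 (adjusted p = 0.209; 0.0012 with the block), and Rfx2 at -0.46. Myb and Ccno, which act in the same programme, passed likewise at -1.27 and -0.70, and these 4 were named after their values were seen.

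Members also differed between samples of the same group. The controls stood in the order control 1, control 3, control 2 from high to low in 33 of 59 members, or 55.9%, against 14.7% of all genes tested. In Rsph4a, for example, control 1 was above control 2 by more than the TNF difference of the gene. The SD among controls had a median of 0.23 over the members and 0.15 over all genes tested. Of 15 ependymal markers that are not members, 12 showed the same order of controls, and 11 of the 15 are themselves cilium genes of the lists. Their mean signal was 8.16, 7.32 and 7.70 in controls 1, 2 and 3 and 7.72, 7.30 and 7.45 with TNF. The list's median difference was -0.35, with 1 marker higher and 0 lower without the block. With it 1 was higher and 8 were lower (53.3%, against 11.8% of all genes). Of the 4 ependymal markers in no cilium list, Rarres2, a chemoattractant precursor, rose by 1.67, Calml4 was at -0.63 and passed as lower with the block alone (adjusted p = 0.0376), Cd24a at 0.04 and Mia at -0.02. The part of ependymal cells in the members' values was not tested.

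Cell cycle genes took another course over the arrays. Their mean was 8.30, 9.32 and 8.37 in controls 1, 2 and 3 and 8.03, 8.49 and 7.79 with TNF, so that control 2, where many axoneme genes were the lowest of the controls, was the highest. Of 29 measured, 0 passed without the block and 18 passed as lower with it (62.1%, against 11.8% of all genes), with a median of -0.53. The part of proliferation in the members' values was not tested. Choroid plexus markers, of another ciliated epithelium, had a median of -0.25, and 2 of 7 fell in both fits (28.6%). Of all genes 3.33% fell without the block and 11.8% passed as lower with it. Kcnj13, a potassium channel, fell by 1.93 and Folr1, a folate receptor, fell by 0.62. Of 8 oligodendrocyte, 8 neuron, 6 endothelial and 8 fibroblast and mural markers 1 fell each (Olig1, Map2, Kdr and Acta2). In lists this small 1 gene is 12.5%, or 16.7% for endothelium, against 3.33% of all genes. Of 13 microglial markers 0 fell, and 0 rose in any of these lists, where 3.87% of all genes rose. With the block, 3 microglial markers passed as higher (23.1%, against 9.73% of all genes) and 0 as lower. In that fit 1 oligodendrocyte (12.5%), 2 neuron (25%), 1 endothelial (16.7%) and 2 fibroblast and mural (25%) markers passed as lower with 0 higher. Of all genes 11.8% passed as lower. Medians of these lists were 0.09 for microglia, -0.0093 for oligodendrocytes and precursors, -0.11 for neurons, 0.03 for endothelium and -0.0065 for fibroblasts and mural cells.

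**Figure D4:**
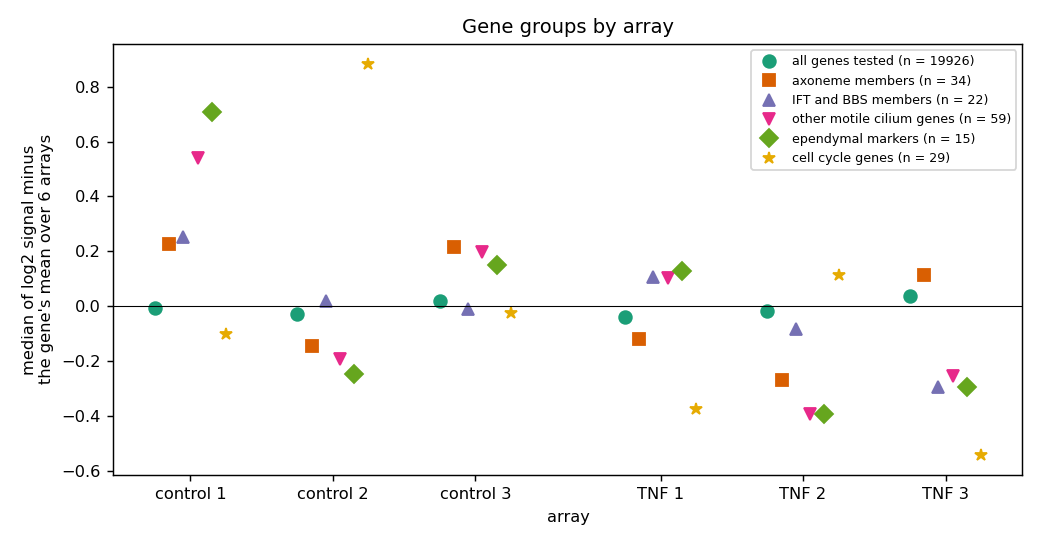
Median over each gene group of the log2 signal minus the gene's own mean over the 6 arrays, 1 point per group and array. Axoneme members, other motile cilium genes and ependymal markers are high in controls 1 and 3 and low in control 2, while cell cycle genes peak in control 2 at 0.88. All genes tested stay between -0.04 and 0.04.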

How the data were processed

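The deposited values are log2 signals per probe set. The submitters' processing notes name RMA (background correction, quantile normalization, probe summary) and limma, whose versions are not stated there. The log2 scale was read from the values, and no detection calls were used. Of 35544 probe sets, 21777 had exactly 1 gene symbol in the platform annotation. The probe set of highest mean over the 6 arrays stood for each gene, which left 19926 genes.

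Differences, TNF minus control, were tested two-sided by lmFit and eBayes of limma 3.58.1 under R 4.3.3, with Benjamini-Hochberg adjustment over all genes tested. Residual degrees of freedom were 4, or 2 with the block, and the prior added 3.70. Same-numbered arrays correlated at 0.55, 0.65 and 0.75 in their deviations from the group means over genes, and the numbers were taken to pair the samples because each was over 0.1. The pairing rests on these values, as the labels do not state it. The alternatives are given in the closing section. The script was tested on simulated data. Python 3.11.15 with pandas 2.3.3 and matplotlib 3.10.9 prepared tables and plots.

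The members, the lists of cilium genes and markers and the tests were chosen with earlier results of these data known. Gene lists were written from general knowledge. The rule for named genes took called members, the 6 of largest difference in each direction, fixed genes, the brightest and dimmest of each role, members whose call differed with the block, and up to 3 called genes of smallest p per list. Other members are named to account for all, and other genes are marked where they stand or are markers. Promoters came from RefSeq; no genome was used.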

Additional observations from a re-analysis of the deposited data

How the results depend on the processing

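The causes of the shifts given here were not tested, beyond fewer arrays or genes entering a fit. Members called lower (2) numbered 1 without genes below the median signal, 4 with array weights, 20 with the replicate block, 0 at an adjusted p under 0.01 and 0 when a log2 difference of 1 or more was also required. They ranged from 0 to 5 without 1 array and were 0 without replicate 3 in both groups. The block without replicates 1, 2 and 3, added after the data were seen, gave 15, 16 and 8. Members called higher were 0 under every alternative run. The median of the members (-0.16) was -0.24 without genes below the median signal, where 30 members were tested, and ranged from -0.0603 (without control 1) to -0.24 (without TNF 1) with 1 array left out; without control 2 it was -0.24.

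Of all genes, 771 were higher and 663 lower. The block gave 1938 and 2351, and the block without replicates 1, 2 and 3 gave 1801, 1275 and 1250 higher and 2258, 1660 and 1451 lower. An adjusted p under 0.01 left 386 and 195, and the added log2 difference of 1 or more left 365 and 200. Leaving out 1 array gave 465 to 669 higher and 315 to 455 lower, and leaving out replicate 3 gave 401 and 231. No named gene changed direction in any alternative where it was called. Array weights also called Dnah9 (adjusted p = 0.0449) and Dnah11 (0.0475), and the fit without control 2 called these 2 and Dnah6 (0.0345, 0.0273 and 0.0473). The blocked fit changed the calls of 18 members, from none to lower. Dim signals limit what can be seen in the central apparatus and tektin genes among the members.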

Other observations

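Genes of the transition zone, the gate at the base of the cilium, were also lower more often than higher. Of 24 measured, 1 fell (4.17%, against 3.33% of all genes tested) and 0 rose. With the replicate block 8 passed as lower (33.3%, against 11.8% of all genes) and 1 as higher, with a median of -0.12. Ahi1, a gate protein mutated in Joubert syndrome, fell by 0.63 (adjusted p = 0.0139). Of 36 basal body and centriole genes 1 fell (2.78%) and 1 rose. With the block 7 were lower (19.4%) and 2 higher, and the median was -0.10. Alms1, the Alstrom syndrome protein, fell by 0.80 and Ninl, a ninein-like centrosomal protein, rose by 0.77. Among 39 ciliary membrane and traffic genes Pkd1 (2.56% of them), the polycystin of primary cilia, fell by 0.55 and 0 rose. With the block 6 of these genes were lower (15.4%), and the median was -0.10. Without the block, the counts of lower genes in these lists were near the share of all genes. Leaving out 1 array ended the call of Pkd1 in 6 of 6 fits, of Alms1 in 4 and of Ahi1 in 2 (adjusted p up to 0.123, 0.0898 and 0.0666).

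The Hedgehog pathway signals through the primary cilium. Of its 26 measured genes 1 rose and 0 fell, where 3.87% and 3.33% of all genes did. With the block 3 passed as higher (11.5%, against 9.73% of all genes) and 6 as lower (23.1%, against 11.8%), with a median of -0.11. The gene that rose was Sufu, the inhibitor that holds GLI factors, by 0.67 (adjusted p = 0.00792). Ptch1, the receptor and a target of the pathway, was at -0.81 (adjusted p = 0.0661; 0.0017 with the block) and was named after its values were seen. Of 19 genes of cilium disassembly Kdm4a, a histone demethylase, rose by 0.60 and 0 fell. The call of Kdm4a was lost in 3 of 6 fits with 1 array left out (adjusted p up to 0.0611). With the block 6 genes of this list were lower (31.6%) and 1 higher (5.26%), with a median of -0.23.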
